A study of Mus musculus with 9 samples.

Results

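The comparison described here is that of mouse satellite cells at passage 15 (P15) in a cytokine medium with the same medium at P0, P1 and P2. It rests on 4 of the 9 libraries of the series, 1 library for each passage, and on 555 genes. The labels give the strain as C57/BL6/DBA, the tissue as limb skeletal muscle and the age as 1 to 3 days, with males and females pooled, and the dishes as coated with collagen. In all 4 cultures F10 medium with FBS (15%) also held TNF-α and IFN-γ (both 10 ng/ml), IL-13 together with IL-1α (both 5 ng/ml) and FGF (2.5 ng/ml). The cytokines were thus the same at every passage, and passage was the only labelled difference. The 4 libraries of T cell medium, grown at the same passages in T cell conditioned medium mixed with F10 medium and FBS plus FGF at 2.5 ng/ml, were used where a difference between media was asked for. The labels do not say whether the P15 cells descend from those sampled at P0 to P2, nor how the cells were isolated.

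Satellite cells are the stem cells of skeletal muscle and lie between a muscle fibre and its basement membrane. In culture they divide as myoblasts and can fuse into myotubes that make sarcomere proteins. IFN-γ acts through its receptor to induce antiviral and antigen presentation genes, and IL-1α and TNF-α act through NF-κB to induce inflammatory genes and matrix metalloproteases. FGF acts through ERK and keeps myoblasts dividing.

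Levels are RPKM, read numbers divided by gene length and scaled by the reads of the library. The table holds 11148 rows, and row names were taken to go with their values only in the first part of 8 chromosomes. On chromosome 16 this part was long, with genes up to at least Slc5a3 at base 92058322, and names there stay in some doubt. A gene was named here only if it lies in these parts (768 names) and reached 1 RPKM in at least 1 of the 9 libraries. This gave 555 genes, 321 of them on chromosome 16 and 105 on chromosome 19. Ribosomal protein, proteasome and similar universally expressed families had a mean of at least 1 RPKM in 18 of 19 rows (94.7%) with usable names and in 40 of 147 (27.2%) of the other rows. The estimated depth was 14.5, 17.5 and 15.6 M reads at P0, P1 and P2 and 12.8 M at P15, the lowest of the 9 libraries. Of 6 satellite cell markers (Pax7, Myf5, Myod1, Cdh15, Itga7, Chodl), only Chodl had a usable name, and it was at 0, 0.00719, 0 and 0 RPKM at the 4 passages, so the label could not be checked. The adipocyte gene Adipoq was at 0 in all 4 libraries, the macrophage gene Cd86 was at most 0.0114, and the smooth muscle genes Myh11 and Mylk summed to 0.146 to 0.28. In bulk RNA, fewer cells of a type and less RNA per cell cannot be told apart.

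At P15 most of the 555 genes stood near their early levels, and few stood far from them. The median difference from the mean of P0, P1 and P2 was -0.02 on the log2(RPKM + 1) scale, on which all log2 differences here are given, and -0.03 over all 3686 rows that reached 1 RPKM. Only 1 gene rose and 1 fell past a Benjamini-Hochberg adjusted p of 0.05 in limma, which took its spread from the 3 early libraries and assumed that the lone P15 library varies like them. They were Pla1a and Mmp3. Over all rows, 0.0814% passed as higher and 0.0543% as lower. At an unadjusted limma p below 0.05, 49 of the 555 genes were higher and 42 lower, against 5.21% and 8.38% of all rows. Both calls depended on the library and the scaling. Without P0, 11 genes passed as higher, among them Col4a1, Col4a2, Cd200, Pdgfd, Cnih2 and Casp12, and 19 as lower, among them Bbx, Emp2, Cdk6, Alcam, Adamts1 and Parp14. Counts were, without P1, 0 and 0 (26 and 36 at an unadjusted limma p below 0.05), and without P2 1 (Stmn2, not Pla1a) and 0 (43 lower at an unadjusted p below 0.05). Over all rows, 114 passed without P0, and 1 each without P1 and without P2. With quantile normalization neither Pla1a nor Mmp3 passed (limma adjusted p = 0.067 for each). By size alone, 8 genes (1.44%, against 0.651% of all rows) were at least 2-fold higher and above every early library, and 3 (0.541%, against 0.244%) at least 2-fold lower and below every early library. Without P0 these counts were 8 and 4, without P1 6 and 1, and without P2 11 and 5. These leave-out counts were not made over all rows. The 8 were Stmn2, Col4a2, Pdgfd, Col4a1, Pla1a, Cd200, Pygm and Cnih2, and the 3 were Mmp3, Bbx and Emp2. At the edge of 2-fold, Emp2 (-1.04) and Cnih2 (1.01) were just inside, and Birc3 (-0.99), Cdk6 (-0.94) and Zfhx4 (-0.94) just outside. With 1 library against 3, an exact permutation test of a single gene cannot go below a one-sided p of 0.25.

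**Figure D1:**
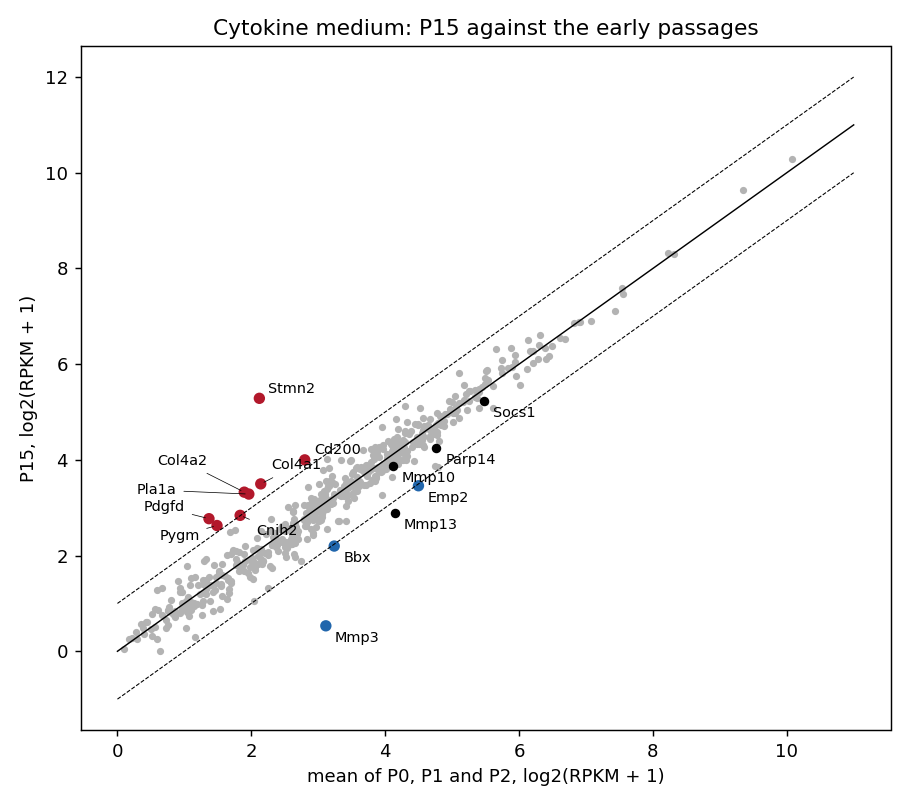
Level of the 555 genes at P15 (vertical axis) against the mean of P0, P1 and P2 (horizontal axis) in cytokine medium, both as log2(RPKM + 1), 1 point per gene, with the solid line at equality and dashed lines at 2-fold. The 8 genes at least 2-fold higher and outside the early range are red, the 3 lower ones blue, and Mmp10, Mmp13, Socs1 and Parp14 black, with Stmn2 and Mmp3 farthest from the line.

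The early passages also differed from each other. The SD of the log2 differences over the 555 genes was 0.3 from P0 to P1, 0.289 from P1 to P2 and 0.406 from P0 to P2. It was 0.445, 0.437 and 0.357 from P0, P1 and P2 to P15. By this SD the step from P2 to P15 was no wider than that from P0 to P2. The SD is weighted by genes with large steps, among them Mmp10, Mmp13 and Stmn2 from P0 to P2. A chi-square per row between libraries, over rows of moderate read number with or without usable names, had the other order. It was 2.484 from P2 to P15 and 2.226 from P0 to P2. Set against P0, 10 genes were at least 2-fold higher at P15 and 4 lower (1.25% and 0.597% of all rows). Set against P1 they were 11 and 8 (0.922% and 0.624%), and set against P2 they were 4 and 5 (0.461% and 0.38%). The 4 that were 2-fold above P2 were Cd200, Col4a1, Col4a2 and Pla1a. The 5 that were 2-fold below P2 were Alcam, Bbx, Mmp3, Mmp10 and Mmp13. P15 lay above every early library for 177 genes (31.9%, against 27.0% of all rows), below every one for 200 (36.0%, against 36.9%) and between them for 178. Levels went up at each step from P0 to P15 for 49 genes (8.83%, against 6.4%), among them Stmn2, Pdgfd, Casp12 and Nfkbiz. They went down at each step for 51 (9.19%, against 10.3%), among them Emp2, Birc3, Cdc45 and Kif5b.

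The matrix protease list held the only gene that passed as lower in the main limma fit. Mmp3 encodes stromelysin-1, which cuts basement membrane and matrix proteins and activates other metalloproteases. It lies on chromosome 9 (7445822 to 7455975, plus strand, GENCODE on GRCm38) within a cluster of matrix metalloprotease genes that also holds Mmp10 (stromelysin-2) and Mmp13 (collagenase-3). The 250 bases before the annotated start of each, from RefSeq on GRCm38.p6, are shown. These 3 neighbours were all at least 2-fold below P2 at P15, but only Mmp3 was below every early library. Capitals mark matches to TGANTCA, the letters bound by AP-1 factors, and to TATAAA, the TATA box. The Mmp3 stretch is chr9:7445572-7445821, the Mmp10 stretch chr9:7502092-7502341 and the Mmp13 stretch chr9:7272264-7272513, all on the plus strand.
Mmp3: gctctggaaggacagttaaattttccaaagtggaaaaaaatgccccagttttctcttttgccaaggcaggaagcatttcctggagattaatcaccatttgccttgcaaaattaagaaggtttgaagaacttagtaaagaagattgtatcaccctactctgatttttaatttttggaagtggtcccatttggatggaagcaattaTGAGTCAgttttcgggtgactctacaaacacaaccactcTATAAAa
Mmp10: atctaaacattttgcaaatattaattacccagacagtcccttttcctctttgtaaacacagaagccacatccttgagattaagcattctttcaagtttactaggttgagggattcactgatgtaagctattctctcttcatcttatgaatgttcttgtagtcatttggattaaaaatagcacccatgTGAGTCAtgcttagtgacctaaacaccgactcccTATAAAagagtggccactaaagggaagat
Mmp13: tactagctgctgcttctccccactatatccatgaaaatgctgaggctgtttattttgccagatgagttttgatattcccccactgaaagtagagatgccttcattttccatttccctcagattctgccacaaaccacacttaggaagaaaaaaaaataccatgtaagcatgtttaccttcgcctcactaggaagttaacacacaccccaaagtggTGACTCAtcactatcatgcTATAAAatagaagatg
The AP-1 letters began 46, 63 and 35 bases before the start in Mmp3, Mmp10 and Mmp13, and the TATA letters 7, 29 and 16 bases before it. GGGCGG (GC box) and CCAAT were also searched on both strands and had no match in the 3. Of 27025 promoters of this length, 6.87% held TGANTCA, 13.0% TATAAA, 32.9% GGGCGG and 34.5% CCAAT. A match is only a run of letters, and binding was not measured here.

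Mmp3 was at 5.86, 8.08 and 9.42 RPKM at P0, P1 and P2 (7.78 ± 1.80, SD, n = 3) and at 0.446 RPKM at P15. The P15 level was below each early one, with 11 reads against 154, 266 and 247. Mmp3 fell by 2.58 ± 0.24 (SE) on the log2 scale (limma adjusted p = 0.0443). The ratio of estimated reads per depth, P15 to the pooled early libraries, was 0.0613. Its 95% counting interval was 0.0305 to 0.11, which covers counting error only. Without the P1 library the adjusted p was 0.465, and without P2 it was 0.127. Its neighbours, like Mmp3, rose at each step from P0 to P2 and were lower at P15. From P2 to P15 the log2 difference was -2.85 for Mmp3, -1.85 for Mmp10 and -3.3 for Mmp13. Unlike Mmp3, neither neighbour went below its P0 value. Mmp10 was at 3.14, 22.8 and 52.0 RPKM at P0, P1 and P2 and at 13.7 RPKM at P15. Mmp13 was at 3.32, 16.6 and 72.0 RPKM and then at 6.404. Both peaked at P2, and their P15 values lay within the early range. Their differences of -0.24 (Mmp10) and -1.26 (Mmp13) did not pass (limma adjusted p = 0.953 and 0.722). Without P2 the difference of Mmp10 was 0.56, the opposite direction, and that of Mmp13 was -0.24. Without P0 they were -1.28 and -2.27, with P15 below both remaining libraries (limma adjusted p = 0.0643 and 0.0515). In T cell medium both were low until P2 and higher at P15. There Mmp10 was at 0.432, 0.601, 0.185 and 10.3 RPKM and Mmp13 at 1.60, 1.10, 0.893 and 6.17 RPKM. Mmp3 in T cell medium was at 1.78, 0.162, 0.0354 and 0.0736 RPKM, so that at P15 it was low in both media. Adamts1, a secreted protease that cuts proteoglycans, was at 6.36, 5.32 and 5.55 RPKM early and 2.70 at P15 (-0.86, limma adjusted p = 0.12). Of the 5 measured genes of the protease list, Adamts5 was the remaining one and was below 0.3 RPKM in every cytokine library. In all, P15 was below every early library for 2 of the 5 (36.9% of all rows) and above for 0 (27.0%), with a list median of -0.86.

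**Figure D2:**
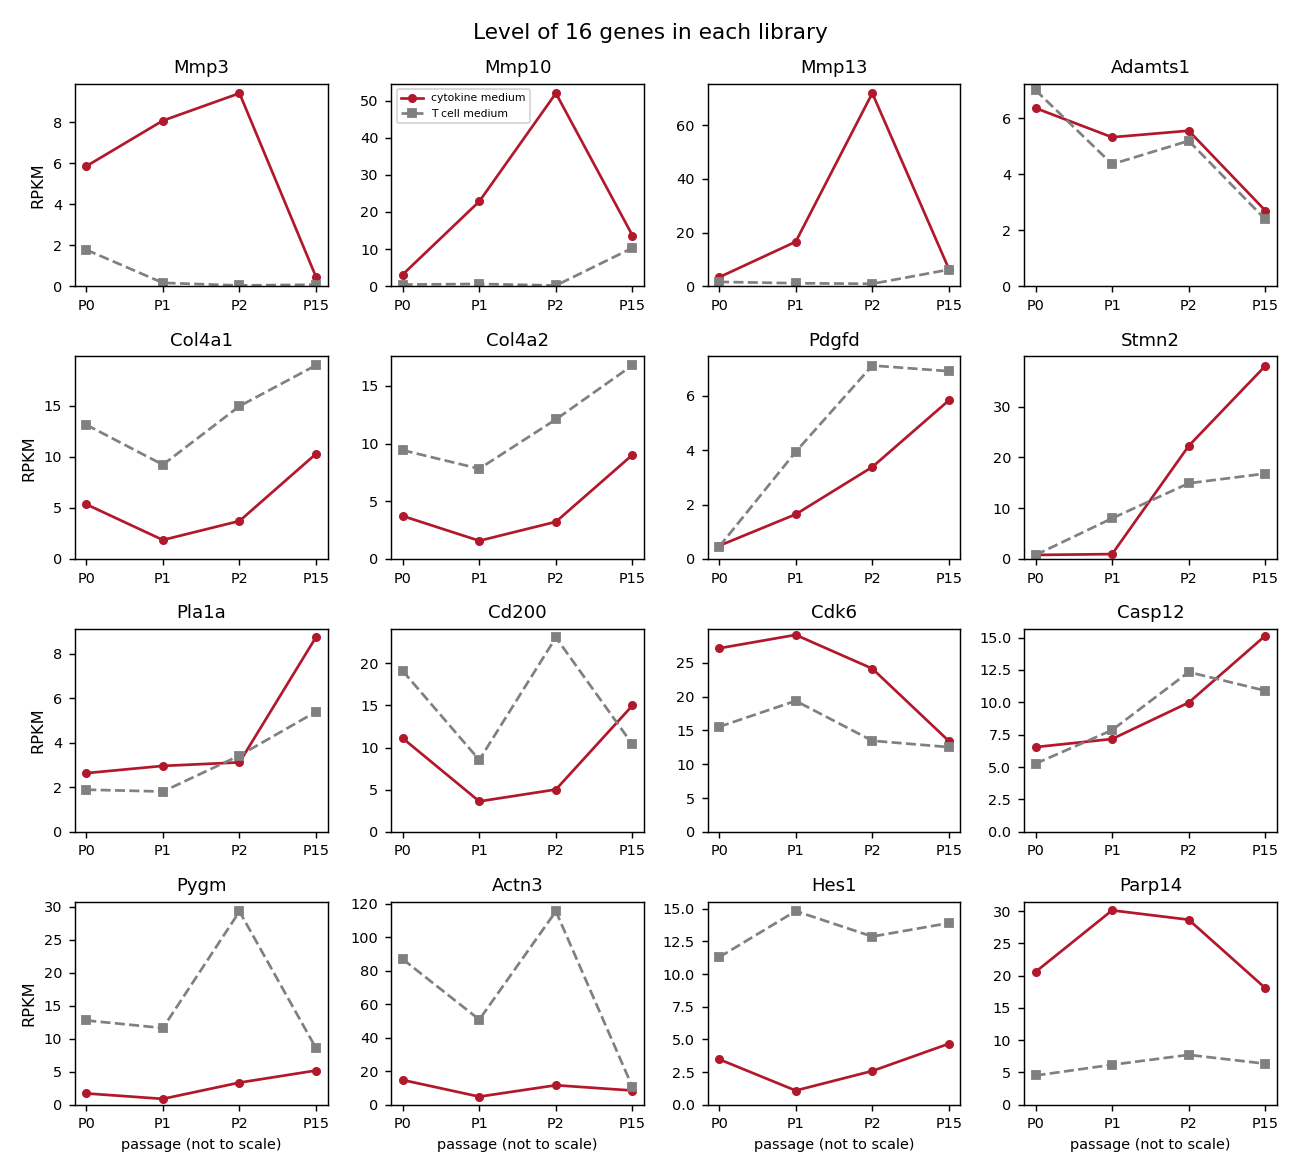
Level of 16 genes in RPKM (vertical axes start at 0 and differ between panels) at P0, P1, P2 and P15 (horizontal axis, not to scale) in cytokine medium (red circles) and T cell medium (grey squares), 1 library per point. In cytokine medium Mmp3 dropped from 9.42 to 0.446 RPKM between P2 and P15, Mmp10 and Mmp13 peaked at P2, and Col4a1 and Col4a2 had their highest cytokine value at P15.

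Among collagens and matrix genes, 4 of 8 lay above every early library (27.0% of all rows did) and 0 below (36.9% of all rows), 2 of them by at least 2-fold (0.651% of all rows). None of the 8 passed limma, and at an unadjusted limma p below 0.05 all 4 of these genes were higher. Col4a1 and Col4a2 encode the chains of the main collagen IV of basement membranes. They lie head to head on chromosome 8, with start sites 21 bases apart at 11312826 (Col4a1, minus strand) and 11312805 (Col4a2, plus strand). Col4a1 was at 5.35, 1.86 and 3.72 RPKM at P0, P1 and P2 and at 10.3 at P15. Col4a2 was at 3.72, 1.58 and 3.22 RPKM and then at 9.02. Both had their lowest value at P1 and their highest at P15, and at every passage Col4a1 was the higher of the pair. The differences were 1.36 ± 0.42 and 1.43 ± 0.34 (SE), with limma adjusted p of 0.318 and 0.276. Both genes were at higher levels in T cell medium at each passage, with 19.0 RPKM for Col4a1 and 16.8 for Col4a2 at P15. Fstl1, a secreted glycoprotein that is also on the fibroblast marker list, was at 64.2, 56.8 and 52.9 RPKM and then at 79.8 (0.46, limma adjusted p = 0.327). Efemp2, which encodes fibulin-4 of elastic fibres, was at 30.1, 29.6 and 30.7 RPKM and then at 36.7. The fibroblast markers with usable names, Fstl1 and Lrrc15, summed to 53.0 to 64.2 RPKM early and 79.8 at P15, nearly all of it Fstl1, and their part in these differences was not tested. Col8a1, a network-forming collagen, stayed between 29.4 and 34.9 RPKM over all 4 libraries.

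The list of secreted ligands and guidance factors, which also holds the secreted enzyme Pla1a, had 6 measured genes. Of these, 5, with Pla1a among them, lay above every early library (27.0% of all rows did), and the list median was 0.76. The list was drawn up with earlier results of these data known. Pla1a, a secreted phospholipase that acts on phosphatidylserine, was the only gene that passed as higher in the main limma fit. It was at 2.63, 2.96 and 3.12 RPKM early (2.90 ± 0.246, SD, n = 3) and at 8.75 RPKM at P15. The early libraries lay close together and P15 well above them, at 223 reads against 78, 102 and 98. The rise was 1.32 ± 0.12 (SE, limma adjusted p = 0.0443). The ratio of estimated reads per depth, P15 to the pooled early libraries, was 2.99 (95% counting interval 2.5 to 3.58). Without the P1 library the adjusted p was 0.465, and without P2 it was 0.127. Pla1a lies on chromosome 16 (38396117 to 38433145). If the row coordinates there were off by 250 bases, only 13.0% of its exon bases would still lie in its own exons, so the name of this row is in doubt. Pdgfd, a growth factor of the PDGF family, was at 0.485, 1.64 and 3.38 RPKM and then at 5.82 (1.40, limma adjusted p = 0.367), higher at each step. Gas6, the ligand of the Tyro3, Axl and Mertk receptors, was at 17.9, 12.4 and 29.3 RPKM and then at 34.1 (0.83), close to its P2 value. Sema3d, a guidance factor, was at 0.265, 0.193 and 1.30 RPKM and then at 1.42. Efnb2, an ephrin ligand, stood at 23.9 to 24.2 RPKM early and 25.5 at P15. Gal, the precursor of the neuropeptide galanin, was the exception and went through a peak of 43.8 RPKM at P2 with 22.3 at P15.

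Stmn2 had the largest difference of all 555 genes. It encodes a microtubule-destabilising protein known from growing axons. It was at 0.799 and 0.963 RPKM at P0 and P1, 22.3 at P2 and 38.0 at P15. The jump came between P1 and P2, within the early passages, and P15 was 0.75 above P2 on the log2 scale. With early libraries this far apart, the difference was 3.17 ± 1.46 (SE, limma adjusted p = 0.405). In T cell medium Stmn2 was at 0.777, 8.01, 14.9 and 16.8 RPKM, so that it was high at P2 and P15 in both media. Cnih2, an auxiliary protein of glutamate receptors, was at 1.67, 2.84 and 3.42 RPKM and then at 6.16 (1.01, limma adjusted p = 0.303), with 9.63 RPKM at P15 in T cell medium. Stmn2 and Cnih2 were the only 2 of the 555 genes that were at least 2-fold higher and outside the early range in both media. By the same rule 0 genes were lower in both. This overlap was not counted over all rows, so whether it is large or small cannot be said. Gap43, a growth cone protein, was at 2.96, 4.83, 9.07 and 6.62 RPKM, within the early range at P15. Of the 5 measured neuronal-type genes, 2 lay above every early library (27.0% of all rows) and 1 (Robo1, the receptor of Slit proteins) below (36.9%), with a median of 0.31. The Schwann cell and nerve markers with usable names, Gap43 and Stmn2, summed to 3.76 to 31.3 RPKM early and 44.6 at P15. They are members of the list themselves, and the makeup of the cultures was not tested.

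With all 4 libraries, no gene of the IFN-γ response passed limma or 2-fold at P15. Of 7 measured, 3 lay below every early library (36.9% of all rows did) and 1 above (27.0%), the median was -0.21, and 0 had an unadjusted limma p below 0.05. Parp14, an interferon-induced ADP-ribosyltransferase gene, was at 20.6, 30.1 and 28.7 RPKM and then at 18.1 (-0.51, limma adjusted p = 0.392), and without P0 it passed as lower (-0.67, limma adjusted p = 0.0211). Socs1, the feedback inhibitor of cytokine receptors, was at 40.1, 50.1 and 41.5 RPKM and then at 36.5. Both were just below their lowest early value, P0 for each. Parp9 and its partner Dtx3l were at 19.0 and 16.5 RPKM at P15, within early ranges of 15.0 to 19.7 (Parp9) and 13.1 to 18.9 (Dtx3l). Batf2, a transcription factor induced by IFN-γ, was at 6.96, 16.6 and 20.9 RPKM and then at 11.3. Rtp4, an interferon-inducible gene, was the one above all early values, at 10.9, 17.4, 25.4 and 27.9 RPKM (0.69, limma adjusted p = 0.495). For Rtp4, 13.7% of the exon bases would fall in exons of another gene if the row were off by 250 bases. Ciita, the master regulator of MHC class II genes, was low throughout, at 1.37, 1.08, 1.41 and 0.970 RPKM. At P15 the levels of Parp14, Socs1 and Batf2 in T cell medium were 6.35, 13.3 and 3.14 RPKM.

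Of 6 receptor chains and adaptors, 2 lay above (27.0% of all rows) and 2 below every early library (36.9%), with a median of -0.08. By limma 0 passed, and 1, Ifngr2, had an unadjusted p below 0.05. Ifngr2, the signalling chain of the IFN-γ receptor, was at 9.69, 9.93 and 7.43 RPKM and then at 5.61 (-0.59, limma adjusted p = 0.313). P2 and P15 were the lower pair. Il1rap, the accessory chain of the IL-1 receptor, was at 2.19, 3.38, 4.05 and 2.25 RPKM. Ifnar1 and Ifnar2 encode the chains of the type I interferon receptor. Ifnar1 was at 8.51, 8.35, 8.20 and 7.60 RPKM and Ifnar2 at 4.43, 4.23, 4.89 and 4.99 RPKM, the first below and the second above all early values by small margins. Litaf, induced by lipopolysaccharide and TNF-α, was at 48.5, 67.4, 67.3 and 72.2 RPKM.

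Of 7 genes of NF-κB and cell death, 3 lay above (27.0% of all rows) and 3 below every early library (36.9%), with 0 past 2-fold or limma and a median of -0.05. At an unadjusted limma p below 0.05, 1 was higher and 2 were lower. Birc3 encodes an inhibitor of apoptosis that NF-κB induces. It was at 3.59, 3.15 and 2.61 RPKM and then at 1.06 (-0.99, limma adjusted p = 0.122), lower at each step. Birc2, its neighbour and paralog, was at 5.73, 5.22, 4.93 and 4.33 RPKM. Nfkbiz, a nuclear regulator of NF-κB targets, went the other way, at 16.5, 21.3, 30.3 and 33.0 RPKM (0.56, limma adjusted p = 0.458). Casp12, a caspase of the endoplasmic reticulum, was at 6.54, 7.17, 9.98 and 15.2 RPKM (0.88, limma adjusted p = 0.276). Rela, the p65 subunit of NF-κB, was nearly level, at 34.5, 35.7, 35.3 and 37.3 RPKM.

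DNA replication and cell cycle genes were the longest list. Of 23 measured, 13 lay below every early library (36.9% of all rows did) and 7 above (27.0% of all rows), and the median was -0.12, against -0.02 over all 555 genes. By limma or 2-fold 0 passed, and at an unadjusted limma p below 0.05, 1 was higher and 4 were lower. Cdk6, the kinase that drives G1 with D cyclins, had the largest difference, at 27.1, 29.1 and 24.1 RPKM early and 13.4 at P15 (-0.94 ± 0.14, limma adjusted p = 0.12). The early values of Cdk6 were close and P15 well below them, at a level near the 12.5 RPKM of T cell medium. Cdc45 and Mcm4 encode parts of the replicative helicase. Cdc45 was at 29.5, 26.2, 25.0 and 20.1 RPKM (-0.40) and Mcm4 at 90.01, 89.7, 79.6 and 70.8 RPKM (-0.28). Polq, a DNA repair polymerase, was at 2.80, 2.01, 1.80 and 1.33 RPKM. All 3 had their lowest value at P15. After a shift of 250 bases, 25.6% of the exon bases of Mcm4 and 43.9% of those of Polq would stay in their own exons. For Cdc45 it would be 50.1%. The names of Mcm4 and Polq are in doubt, as is that of Pla1a, for which the share was smaller still. The genes above their early values differed by less, up to Rad9a, a checkpoint clamp subunit, at 15.3, 14.4, 14.03 and 18.9 RPKM (0.35). Dbf4, the activator of the replication kinase Cdc7, was at 16.6 RPKM at P15 after 17.5 to 18.6 early.

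Surface proteins of the immunoglobulin family and other adhesion genes differed in both directions, with 3 of 10 above every early library (27.0% of all rows), 3 below (36.9%) and a median of -0.04. Cd200, an inhibitory ligand for myeloid cells, was at 11.1, 3.62 and 5.02 RPKM and then at 15.0 (1.20, limma adjusted p = 0.383). P0 was nearer to P15 than to P1. Cd80, a costimulatory ligand of T cells, was at 1.07, 0.624, 1.61 and 2.44 RPKM (0.74). Cxadr, a junction protein, was at 7.25, 12.0, 11.8 and 14.9 RPKM (0.51). Alcam and Jam2, adhesion proteins, were on the lower side. Alcam was at 21.2, 25.9 and 30.7 RPKM and then at 13.7 (-0.86, limma adjusted p = 0.276). Jam2 was at 11.1, 18.3 and 15.08 RPKM and then at 8.69 (-0.68, limma adjusted p = 0.358). Cd47 and Pvrl3 lay within their early ranges. The T cell markers Btla and Tigit, the only 2 of 8 with usable names, summed to 0.736 to 1.16 RPKM early and 1.91 at P15.

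**Figure D3:**
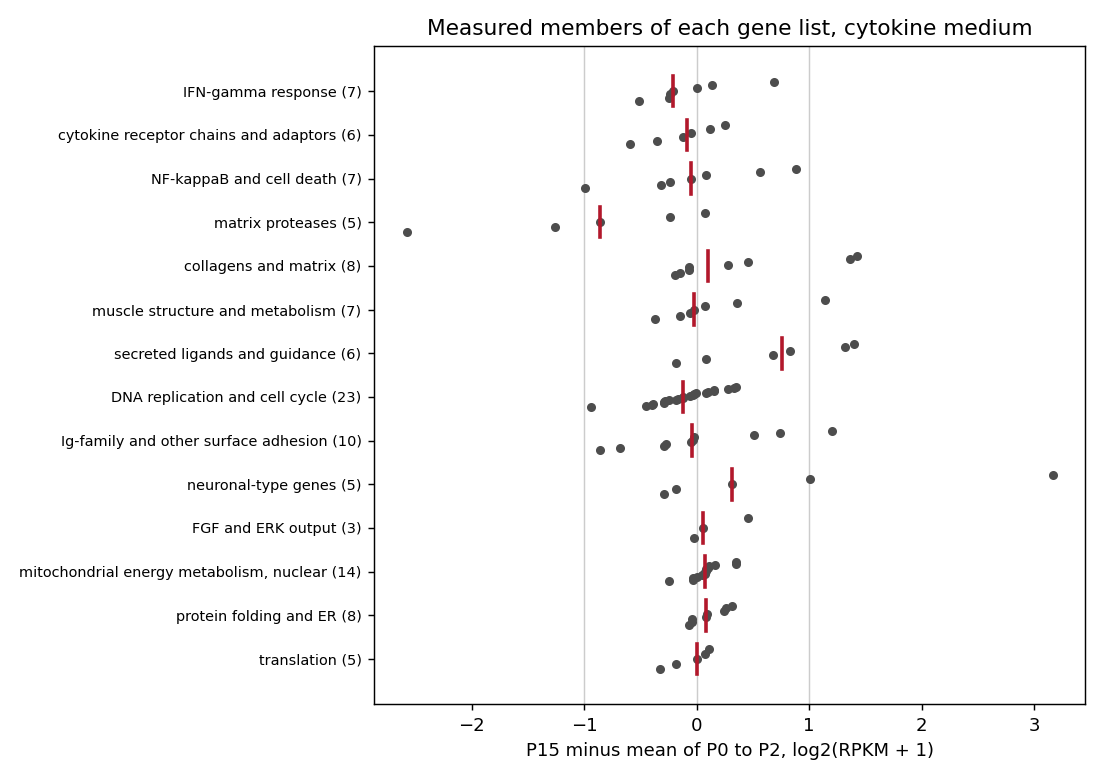
Difference of P15 from the mean of P0 to P2 in cytokine medium, in log2(RPKM + 1) (horizontal axis), for each measured gene (points) of 14 lists with at least 3 measured genes (number in brackets), with the list median as a red bar and grey lines at 0 and at 2-fold. Medians lie between -0.86 (matrix proteases) and 0.76 (secreted ligands and guidance), and points past 2-fold lie in 6 of the lists.

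Muscle genes had no common direction at P15. Of 7 measured, 2 lay above every early library (27.0% of all rows) and 0 below (36.9%), with a median of -0.02. Actn3, which encodes the α-actinin of fast muscle, was at 14.7, 4.79, 11.6 and 8.44 RPKM. Srl, encoding sarcalumenin of the sarcoplasmic reticulum, was at 9.22, 4.90, 6.89 and 5.03 RPKM, and Myom2, of the sarcomeric M-band, at 1.49, 0.416, 1.51 and 1.18 RPKM. Each had its lowest value at P1, and P15 lay within the early range. Pygm, muscle glycogen phosphorylase, was at 1.70, 0.878, 3.35 and 5.18 RPKM (1.14, limma adjusted p = 0.36), with its highest cytokine value at P15.

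The change at P15 was set against that in T cell medium with limma on the cytokine minus T cell difference of each passage. Of the 555 genes, 4 (0.721%, against 0.19% of all rows) passed an adjusted p of 0.05. All 4 were muscle genes. The call depended on settings, with limma's trend placed on mean expression after the data were seen. It was 0 genes with the trend on the mean difference, without a trend, with quantile normalization and with no filter (10 to 27 higher and 16 to 27 lower at an unadjusted limma p below 0.05). The T cell libraries had 86.9, 50.8, 115.5 and 10.5 RPKM of Actn3, and its change at P15 was -2.82 there and -0.15 in cytokine medium. Cytokine medium thus exceeded T cell medium in this change by 2.67 ± 0.31 (SE). Srl was at 50.4, 33.4, 63.4 and 5.85 RPKM in T cell medium, and Myom2 at 10.21, 6.42, 16.3 and 1.62. The T cell libraries of Actn3, Srl and Myom2 were far above the cytokine ones until P2 and close to them at P15. Pygm was at 12.8, 11.6, 29.3 and 8.55 RPKM in T cell medium, with a change of -0.87 there and 1.14 in cytokine medium. The difference between the changes was 2.45 ± 0.28 for Srl, 2.18 ± 0.25 for Myom2 and 2.01 ± 0.22 for Pygm, with a limma adjusted p of 0.0488 for each of the 4. Without the P0 libraries 10 genes passed, without P1 0 (25 higher and 19 lower at an unadjusted limma p below 0.05) and without P2 7. These leave-out counts were not made over all rows. The most negative values belonged to Mmp10 (-3.26), Mmp13 (-2.98), Mmp3 (-2.10) and Col8a1 (-1.15), none of which passed. In T cell medium 7 genes were at least 2-fold higher and 7 lower at P15 (0.733% and 1.63% of all rows).

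The remaining lists held small differences, and 0 of their genes passed limma. Of 14 nuclear genes for mitochondrial proteins, 7 lay above every early library (27.0% of all rows) and 1 below (36.9%), with a median of 0.07, and 2 were higher at an unadjusted limma p below 0.05. Ndufv1, a subunit of complex I, was at 45.7, 42.7, 45.0 and 56.8 RPKM (0.35, limma adjusted p = 0.328). Of 8 genes for protein folding and the endoplasmic reticulum, 5 lay above (27.0%) and 2 below (36.9%), with a median of 0.09 and 0 at an unadjusted limma p below 0.05. The Notch target Hes1 was at 3.48, 1.08, 2.58 and 4.67 RPKM (0.82, limma adjusted p = 0.423) and Hey1 at 1.61, 0.534, 0.843 and 1.00 RPKM. Hes1 was highest at P15 and Hey1 was not. Of the ERK output genes, Fosl1, an AP-1 subunit, was at 15.0, 16.3, 21.2 and 24.2 RPKM (0.46) and Etv5 stayed at 10.7 within its early range. Tbx1, a transcription factor of head muscle progenitors, was at 5.88, 6.98, 5.88 and 9.79 RPKM (0.58, limma adjusted p = 0.266).

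Outside the lists, Emp2 and Bbx were the other genes at least 2-fold lower. Emp2, a tetraspan membrane protein, was at 25.2, 23.7, 16.8 and 9.99 RPKM (-1.04, limma adjusted p = 0.256), and in T cell medium at 24.0, 15.5, 15.0 and 11.2 RPKM. Bbx, an HMG-box protein, was at 7.94, 9.05 and 8.36 RPKM and then at 3.59 (-1.04, limma adjusted p = 0.0956), a narrow early range. Kif5b, the heavy chain of conventional kinesin, was at 51.4, 46.9, 46.0 and 32.9 RPKM (-0.53). On the higher side, Cpt1a, the gatekeeper of mitochondrial fatty acid oxidation, was at 32.4, 27.8, 41.6 and 55.0 RPKM (0.70). Ccs, the copper chaperone of Sod1, was at 12.9, 13.4, 17.6 and 24.8 RPKM (0.74). The row named Ahcy (0.67) also carries the name of a near-identical copy, so its level is uncertain.

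Exon length moved with the difference at P15. Among the 139 genes with the shortest exon length (402 to 3071 bp) the median difference was 0.09, with 67 above and 26 below every early library. Among the 139 longest (7402 to 30730 bp) it was -0.14, with 20 above and 81 below. In T cell medium the corresponding medians were 0.12 and -0.13. The 15 named genes with the largest negative difference had a median exon length of 7981 bp and the 15 with the largest positive one 3218 bp, against 4807 bp for all 555. Mmp3, at 1801 bp, and Stmn2, at 5602 bp, did not follow this order. The part of exon length in the other results was not tested.

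**Figure D4:**
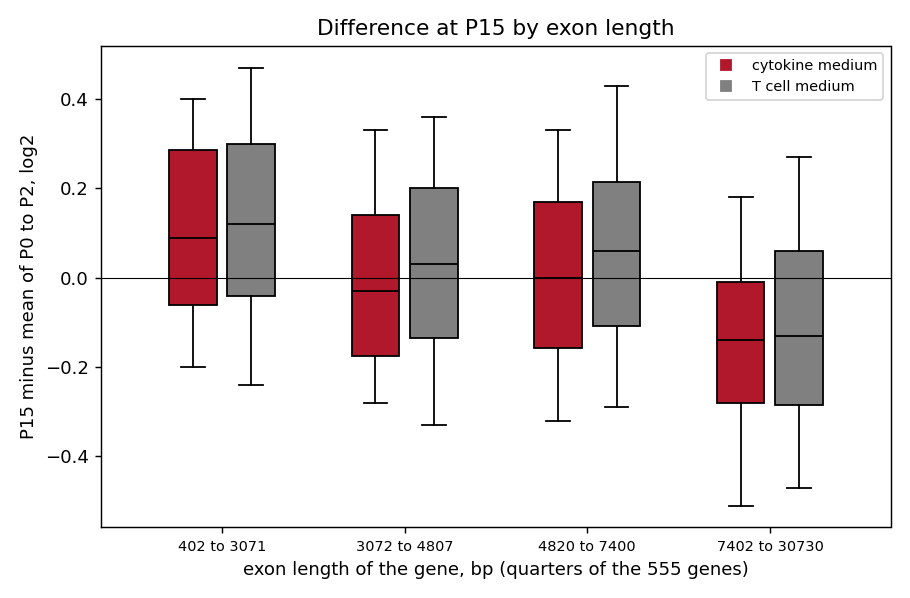
Difference of P15 from the mean of P0 to P2 in log2(RPKM + 1) (vertical axis) for the 555 genes in 4 equal groups by exon length in bp (horizontal axis), in cytokine medium (red) and T cell medium (grey). Boxes span the middle 50% of genes with the median as a line and whiskers the middle 80%, and the median in cytokine medium was 0.09 for the shortest genes and -0.14 for the longest.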

How the data were processed

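RNA of 9 cultures was sequenced from TruSeq libraries, per the labels' protocols. The authors deposited RPKM values, per the file headers, in 2 columns per library. Per the submitters' processing notes, which give no roles, the tools were TopHat2 2.0.1 and HTSeq 0.5.4p2 and the build mm10, the annotation, strand setting and exact RPKM scaling not being given in the sources used here. The 2 columns of a library differed by less than sampling noise (chi-square per row 0.376 to 0.45, against 1.809 to 3.387 between cytokine libraries), so their mean counted as 1 sample. Of 11148 rows, 11105 matched GENCODE on GRCm38. Usable names were taken from the chromosome starts where names go with values, a limit fixed from earlier work on these files, and the members and gene lists were chosen with earlier results of these data known. An earlier fit placed the chromosome 16 rows slightly off, and a simpler scan tried here could not reproduce it, so the names there stay in some doubt. Of the 321 genes there, 239 keep at least 50% of their exon bases in their own exons after a shift of 250 bp. Those described in the report that keep less are Pla1a, Tigit, Mcm4, Polq, Parp9 and Gap43. The shift was not tried on other chromosomes.

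Differences are on log2(RPKM + 1), which understates changes of low genes. P15 was compared with the mean of P0, P1 and P2 by limma 3.58.1 (R 4.3.3, empirical Bayes with trend, 2 residual degrees of freedom) over the 3686 rows with a maximum of at least 1 RPKM, with Benjamini-Hochberg adjustment over all of them. There are no replicates, so p-values measure only the spread between these libraries, which are different passages. The difference between media used the same model with the trend on mean expression, a choice made after seeing the data. Ratios come from read numbers estimated from the value of 1 read in the first column, so depths and intervals are approximate. The named genes are the 15 largest differences each way among genes of at least 5 RPKM with P15 outside the early range, members of the lists, and the 5 largest each way in the difference between media. The limma comparison of P15 with the early passages was run on simulated data in which P15 had the same variance as they did. The only condition set was that the mean estimate lie close to the change put in. How many calls were right or wrong is not given here. That check cannot test the assumption that the lone P15 library varies like them. The comparison of media was not simulated.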

Additional observations from a re-analysis of the deposited data

Results flagged for a closer look

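The change at P15 differed between media for 4 muscle genes, by limma on the cytokine minus T cell difference in the main setting. The excess of cytokine medium was 2.67 for Actn3, 2.45 for Srl, 2.18 for Myom2 and 2.01 for Pygm, on the log2 scale. In T cell medium Actn3, Srl, Myom2 and Pygm were each lower at P15 than at every early passage, and in cytokine medium the first 3 lay within the early range and Pygm above it. Each rests on 1 library per medium at P15. The main setting placed limma's trend on mean expression, a choice made after seeing the data. With the trend on the mean difference, limma's default and a setting added later, none of the 4 passed. At an unadjusted limma p below 0.05, that setting gave 10 genes higher and 17 lower. None of the 4 passed either with quantile normalization, with no filter, without a limma trend or without P1. The cause was not tested.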

How the results depend on the processing

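The 1 higher and 1 lower gene by limma, 5 over all rows, depended on most settings tried. Higher genes, lower genes and all rows passing were 9, 9 and 78 after scaling the libraries to 1 RPKM sum, 9, 0 and 204 with no filter, 0, 0 and 2 with a filter of 5 RPKM, and 0, 0 and 1 with quantile normalization, with 8 libraries in 1 fit and without the limma trend. At an unadjusted limma p below 0.05, the last 4 settings gave 17 to 48 higher and 29 to 44 lower genes. With a pseudocount of 0.1 there were 0 higher genes (45 at an unadjusted limma p below 0.05) and 2 rows. Leaving out 1 early library gave 0 to 11 higher genes, 0 to 19 lower and 1 to 114 rows, the most without P0. The 8 higher genes by fold were 13 at a pseudocount of 0.1, 4 against P2 alone and 6 to 11 with 1 early library left out. The 3 lower were 11 at a pseudocount of 0.1, 5 with the same RPKM sum and 1 to 5 with 1 early library left out. In these settings the counts by fold were not made over all rows. The 4 genes that differed between media were 0 with quantile normalization, no filter, no limma trend or the trend on the mean difference, and 0 to 10 with 1 early library left out. At an unadjusted limma p below 0.05 those 4 settings gave 10 to 27 higher and 16 to 27 lower. Over 11 alternatives Mmp3 ranged from -3.83 to -2.45 and passed in 4 (adjusted p 1.02e-12 to 0.465), and Pla1a ranged from 1.26 to 1.56 and passed in 3 (8.84e-05 to 0.465). Mmp13 was between -2.27 and -0.24 and Mmp10 between -1.28 and 0.56 with 1 early library left out, the latter, a change of sign, without P2. The cause of these differences was not tested. No paired analysis of P15 against the early passages was possible, because each passage has only 1 library in cytokine medium. The comparison of media is itself paired by passage. The P15 library was the shallowest, at 12.8 M reads, and counts of a few reads limit what can be said of Mmp3 at P15.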
